A study of Rattus norvegicus with 10 samples.

Results

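Cultured rat oligodendrocytes that received mimics of miR-145 and miR-219 together were compared with oligodendrocytes that received a scrambled mimic (miR-ctl), gene by gene across the transcriptome. The comparison held 4 of the 10 RNAseq libraries of the study, 2 of each group, and its members were all genes measured in them. Of 23487 genes in the count table, 15436 reached a count of 5 or more in 2 or more of the 4 libraries and were tested.

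The study asks how miR-145 acts on the differentiation of oligodendrocytes, and the remaining libraries came from oligodendrocytes given the miR-145 mimic alone and from progenitors given an inhibitor of miR-145 or its control. All 6 oligodendrocyte libraries were made from primary cultures of Sprague-Dawley rat pups in the first days after birth. Progenitors were shaken off mixed glia of the cortex, plated in differentiation medium with thyroid hormone and ciliary neurotrophic factor, and transfected with mimics at 30 nM, and RNA was taken 5 days later. The miR-ctl cells thus carried a mimic and the transfection reagent as well. The same 30 nM is given for every group, and whether it holds for each mimic of the pair or for their sum is not known here. The treatment tag of the miR-145 samples also names miR-219, while their titles and descriptions give miR-145 alone, and the titles were followed here. No group analysed here received miR-219 by itself.

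A microRNA is a short RNA that guides an Argonaute protein to messenger RNAs, mostly through base pairing of its seed with sites in the 3′ end of the transcript, and the paired messages are destabilised or translated less. A mimic is a synthetic duplex that raises the level of 1 mature microRNA in the cell. miR-219 is enriched in oligodendrocytes and promotes their differentiation by repressing genes that keep progenitors dividing, whereas miR-145 is high in smooth muscle and low in differentiated oligodendrocytes. A progenitor that leaves the cell cycle passes through a premyelinating stage, in which it holds transcription factors such as Tcf7l2 and Nkx2-2, before it turns on the genes of compact myelin.

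The mature sequences are shown because their seeds, bases 2 to 8 in capitals, decide which messages each mimic can pair with. They were taken from RefSeq, rat assembly GRCr8, where miR-145 lies at chr18:57370033-57370055 and miR-219a at chr3:33516561-33516581, both on the minus strand. The labels do not say which arm of miR-219 was used, and the 5p arm is shown.
rno-miR-145-5p: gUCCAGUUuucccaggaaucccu
rno-miR-219a-5p: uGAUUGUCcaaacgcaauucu
The seeds differ, so the mimics pair with different sites. Matches to them in transcripts were not analysed here.

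Libraries held 33505668 to 42062473 estimated counts. As a check of the label, Mbp, a main protein of compact myelin, stood at 6224 to 15517 CPM in the 4 libraries (CPM is the count of a gene per unit of library size, after scaling with TMM factors). Gfap, a filament protein that marks astrocytes, was also high, at 4179 to 7754 CPM. In such bulk RNA, more cells of a type and more RNA per cell cannot be told apart. In the principal components of the 500 most variable genes the first component, with 52.9% of the variance, separated miR-145+miR-219 (-9.16 and -11.2) from miR-ctl (16.5 and 3.87), and the second, with 34.8%, separated replicate 1 from replicate 2 in both groups. The study states that its replicates are biological and that each replicate of a primary culture came from 1 animal, a mouse in its wording, while these cells were of rat. The sources do not say whether equal replicate numbers in different groups mark the same culture.

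With edgeR's quasi-likelihood test no gene passed an adjusted p of 0.05 (0% of 15436 genes). With the replicate number as a block, which assumes that equal numbers share a culture, edgeR called 132 genes (0.855%), 100 higher and 32 lower. Before adjustment, 612 genes were higher (3.96%) and 344 lower (2.23%) at p under 0.05. DESeq2 called 106 genes, 73 higher (0.473% of those tested) and 33 lower (0.214%), and in all 106 the libraries of the groups did not overlap. Over all genes, 2673 had both miR-145+miR-219 libraries above both miR-ctl libraries (17.3%) and 2987 had both below (19.4%), and the median log2 fold change was 0.00. Of the 106 genes, 91 had a symbol with a single gene ID, 63 higher and 28 lower. Each of these 91 kept its direction when any 1 library was left out, which groups without overlap make nearly certain beforehand.

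**Figure D1:**
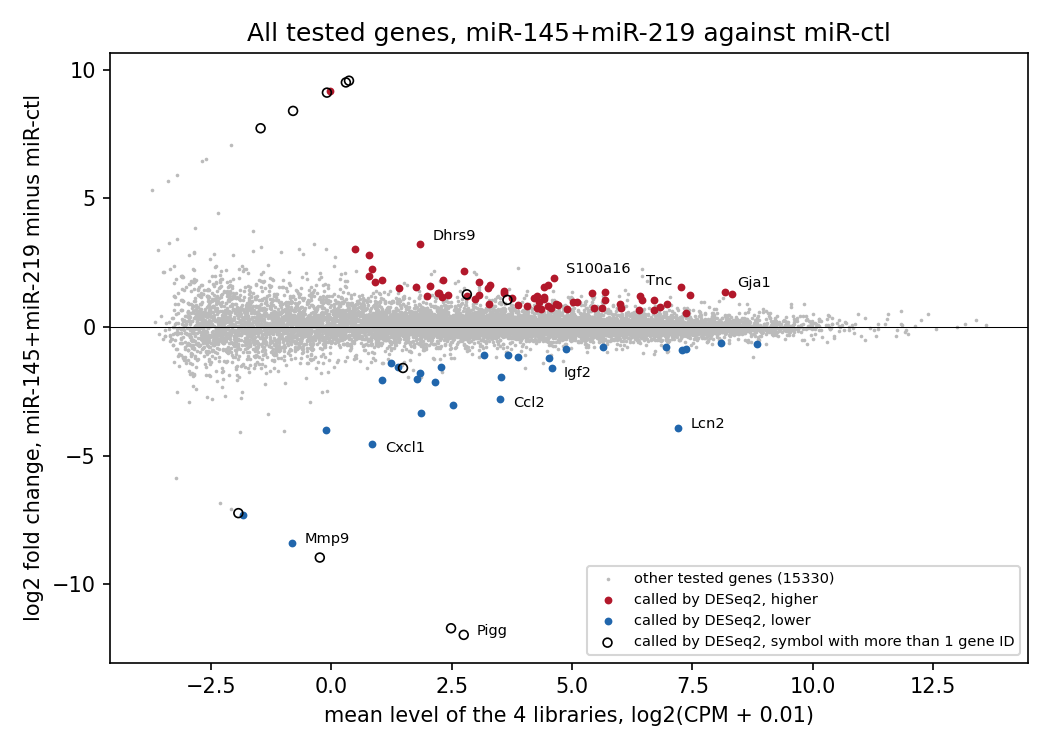
Log2 fold change of miR-145+miR-219 minus miR-ctl against the mean level of the 4 libraries, log2(CPM + 0.01), 1 point for each of 15436 genes. Coloured points and open circles together are the 106 genes called by DESeq2, and the open circles are those whose symbol has more than 1 gene ID. The lower genes include Cxcl1, Ccl2 and Lcn2, and the higher genes include Dhrs9, S100a16 and Tnc.

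Several chemokine genes were lower in the cells with both mimics. Of 14 chemokine and interleukin genes tested, 7 were below miR-ctl without overlap (19.4% of all genes) and 3 above (17.3% of all genes). DESeq2 called 4 of them lower (0.214% of all genes) and none higher (0.473% of all genes). All 4 were chemokines that attract monocytes, neutrophils or lymphocytes. The median log2 fold change of the list was -0.36, from -0.66 to -0.29 when any 1 library was left out.

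Ccl2 (ENSRNOG00000007159), the main chemokine for monocytes, stood at 2.79 and 3.00 CPM with both mimics and at 26.0 and 13.7 CPM in miR-ctl. Its log2 fold change was -2.78 ± 0.35 (SE, n = 2 per group; DESeq2 adjusted p = 1.9e-10, edgeR adjusted p = 0.777). With miR-145 alone Ccl2 stood between these groups, at 4.04 and 7.78 CPM. Ccl7 (ENSRNOG00000000239), a related monocyte chemokine, was at 0.914 and 1.60 CPM against 13.2 and 7.40 CPM in miR-ctl, a log2 fold change of -3.04 ± 0.43 (SE; DESeq2 adjusted p = 3.3e-08). Ccl20 (ENSRNOG00000015992), the ligand of Ccr6 on lymphocytes, was at 0.519 and 0.786 CPM against 9.62 and 3.59 CPM, a difference of -3.34 ± 0.59 on the log2 scale (SE; DESeq2 adjusted p = 9.9e-06). For each of these genes miR-ctl replicate 1 was the highest library, and both libraries with the mimics lay below miR-ctl replicate 2. Without miR-ctl replicate 1 the log2 fold change of Ccl20 was -2.45.

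Cxcl1 (ENSRNOG00000002802), a chemokine for neutrophils, was down to 3 and 8 estimated counts with both mimics against 178 and 79 in miR-ctl. Scaled for library size this was a ratio of 24.6, with a 95% counting interval of 13.5 to 49.8 that covers counting error only (DESeq2 adjusted p = 3.8e-07). Cxcl10, a chemokine induced by interferon, had 2 and 3 counts against 33 and 20, a ratio of 11.1 (4.49 to 35.7), and DESeq2 did not call it (adjusted p = 0.11). Il1b, the inflammasome cytokine, was near the detection limit in every library, with 4 and 5 counts against 12 and 10. Not every member was lower. Ccl3, a chemokine made mainly by microglia, was higher, at 6.23 and 6.90 CPM against 2.74 and 4.02 CPM, which neither tool called (DESeq2 adjusted p = 0.22). Il33, an alarmin held in glial nuclei, was at 7.11 and 7.47 CPM against 10.4 and 12.3 CPM.

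DESeq2 also called lower 6 genes outside the chemokine list that are known from inflammation, picked after their values were seen. Lcn2 (ENSRNOG00000013973), an iron-siderophore carrier that reactive astrocytes secrete, stood at 8.60 and 28.2 CPM with both mimics, against 396 and 156 CPM in miR-ctl. Its log2 fold change of -3.91 ± 0.76 (SE; DESeq2 adjusted p = 0.021, edgeR adjusted p = 0.80) ranged from -5.01 without miR-145+miR-219 replicate 2 to -3.08 without miR-ctl replicate 1. C3, the central complement component, was at 2.27 and 7.18 CPM against 21.5 and 14.9 CPM (log2 fold change -1.95 ± 0.56, SE; DESeq2 adjusted p = 0.028). The 2 libraries with the mimics differed more than 3-fold in both genes, yet stayed below miR-ctl. Without miR-145+miR-219 replicate 2 the log2 fold change of C3 was -3.01, and without replicate 1 it was -1.33.

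Ptgs2, the inducible cyclooxygenase of prostaglandin synthesis, had 3 and 5 counts against 98 and 33 (ratio 17.2, 95% counting interval 8.49 to 40.7; DESeq2 adjusted p = 0.0019). Mmp9, a gelatinase released in inflammation, had no count in either library with the mimics and 62 and 22 counts in miR-ctl. Against a floor of 3 counts per library it was at least 14.7-fold lower (DESeq2 adjusted p = 0.0019). Nfkbiz, an inducible regulator of NF-κB, was at 6.20 and 5.28 CPM against 14.7 and 9.92 CPM. Birc3, an apoptosis inhibitor that NF-κB induces, was at 1.24 and 1.46 CPM against 7.29 and 3.75 CPM. DESeq2 called both lower (adjusted p = 0.044 and 0.0042). In all of these genes miR-ctl replicate 1 was again the highest library.

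Microglia and astrocytes can make these messages, and their markers were read from the same libraries. The 18 microglia markers summed to 592 and 950 CPM with both mimics and to 603 and 843 CPM in miR-ctl, so the groups overlapped. Astrocyte markers were higher with the mimics, at the summed levels given with their values. The part of either cell type in the lower inflammatory genes was not tested.

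**Figure D2:**
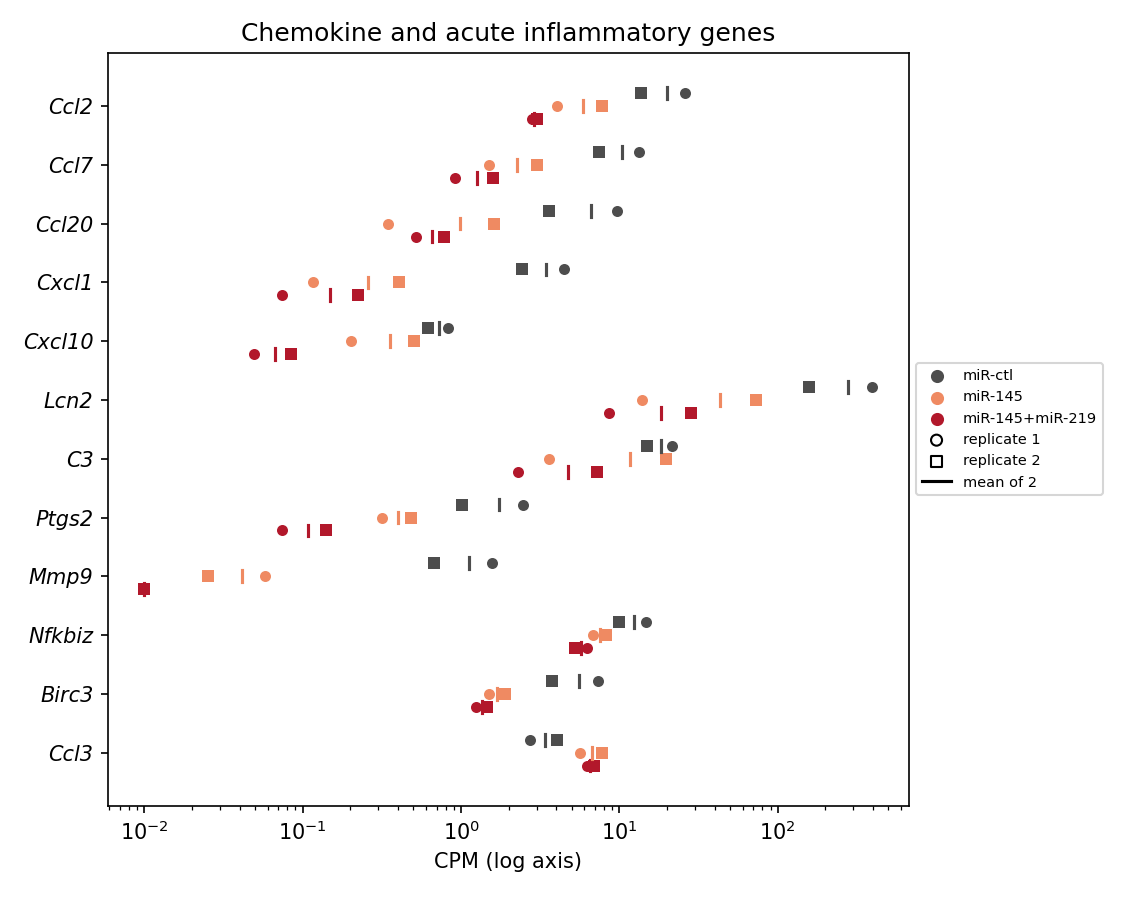
CPM on a log axis of 12 chemokine and acute inflammatory genes in the 6 oligodendrocyte libraries, with circles for replicate 1, squares for replicate 2, colours for the groups and short bars for the mean of 2. Values under 0.01 are drawn at 0.01. Apart from Ccl3, each gene was lower in both miR-145+miR-219 libraries than in both miR-ctl libraries, as for Ccl2 at 2.79 and 3.00 against 26.0 and 13.7 CPM.

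Promoter stretches of 5 of these genes are shown because members that moved together can share regulatory letters. They come from RefSeq, assembly GRCr8, and run 5′ to 3′ along the gene's strand, with capitals for GGGANNNNCC on either strand, a pattern chosen after the values were seen that resembles the binding motif of NF-κB.
Cxcl1, chr14:17479365-17479434: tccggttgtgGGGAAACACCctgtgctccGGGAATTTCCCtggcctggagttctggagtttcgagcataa
Ccl20, chr9:91837039-91837108: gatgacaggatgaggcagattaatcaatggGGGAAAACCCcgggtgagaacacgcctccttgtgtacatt
Ccl7, chr10:67514006-67514075: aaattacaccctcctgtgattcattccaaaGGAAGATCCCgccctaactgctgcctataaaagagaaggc
Cxcl10, chr14:15988909-15988978: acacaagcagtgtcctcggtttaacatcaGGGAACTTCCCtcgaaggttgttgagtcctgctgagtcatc
Lcn2, chr3:36081983-36082030: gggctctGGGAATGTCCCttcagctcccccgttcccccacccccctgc
The window was 300 bases, 250 before and 50 from the annotated start. Of the 14 inflammatory genes described, 10 had an entry and 7 of them held the pattern; Il1b, Il33 and Ptgs2 did not, and Birc3, Ccl2, Ccl3 and Mmp9 were not among the entries. The pattern occurred in 10 of 22 promoters of genes called lower by DESeq2, in 13 of 47 of those called higher, in 25.4% of promoters of all genes tested and in 19.3% of all 33469 promoters. The promoters of lower genes include C3, Ccl20, Ccl7, Cxcl1, Lcn2 and Nfkbiz, which hold the pattern, and Ptgs2, which does not. The pattern was chosen with these genes seen, so its share among the lower genes is no independent evidence. A match is a description of letters and no measure of binding.

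By rank of edgeR p, the 15 lower genes with non-overlapping groups, a mean of at least 1 CPM and a single gene ID were Ccl2, LOC100910669, Cxcl1, Tdrd12, Ccl7, Pirb, Pnlip, Igf2, Slc26a2, Ccl20, Gpr180, Ebi3, Erbb2, Prom1 and Lcn2. DESeq2 called all 15, and edgeR adjusted p-values lay between 0.777 and 0.80. Igf2 (ENSRNOG00000020369), a growth factor of the insulin family, was at 12.03 and 11.5 CPM against 44.7 and 27.0 CPM in miR-ctl, with a log2 fold change of -1.61 ± 0.27 (SE; DESeq2 adjusted p = 4.7e-05). Erbb2, a co-receptor for neuregulins, was at 18.8 and 23.2 CPM against 40.3 and 35.7 CPM (-0.85 ± 0.16 on the log2 scale, SE). Ebi3, a subunit of interleukins 27 and 35, was at 1.19 and 1.40 CPM against 3.34 and 3.53 CPM. Prom1, the membrane glycoprotein CD133, was at 2.52 and 2.41 CPM against 8.84 and 5.56 CPM. These 4 genes share no list, and in each both libraries with the mimics sat close together below miR-ctl.

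The other lower genes of that ranking ranged from log2 fold changes of -0.62 for Gpr180 (217 and 216 CPM against 348 and 317 CPM) to -2.05 for LOC100910669. Tdrd12, of the piRNA pathway, was at 13.3 and 14.5 CPM against 36.4 and 28.1 CPM, and Pnlip, a lipase known from the pancreas, at 83.8 and 97.9 CPM against 158 and 154 CPM. Slc26a2, a sulfate transporter, was at 34.5 and 39.5 CPM against 68.1 and 59.2 CPM. Pirb, an inhibitory immunoglobulin-like receptor, was at 1.33 and 1.29 CPM against 3.72 and 4.08 CPM, and as a member of a family of similar genes it may share reads with its relatives. Beyond the ranking, DESeq2 also called Pdcd4, a translation inhibitor, lower at 345 and 363 CPM against 616 and 505 CPM, and Has2, a hyaluronan synthase, at 1.63 and 1.60 CPM against 7.29 and 3.87 CPM. Cp, the ferroxidase ceruloplasmin, was called lower at 102 and 116 CPM against 234 and 171 CPM.

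Among oligodendrocyte genes, those of the premyelinating stage had lower levels with both mimics and many, not all, of late myelin had higher means with wide spread. All 10 premyelinating genes tested had lower means with both mimics, 8 of them without overlap between groups, against 19.4% of all genes. Their median log2 fold change was -0.47, from -0.53 to -0.28 when any 1 library was left out, and no member was called by edgeR or DESeq2. Without miR-ctl replicate 1, the highest library for most of them, the median was -0.28. The lean was not particular to the pair of mimics. With miR-145 alone against miR-ctl the median of these genes was -0.62. Compared with miR-145 alone, both mimics gave a median of 0.15, with 3 members higher without overlap (13.6% of all genes) and 0 lower (11.2%).

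Tcf7l2 (ENSRNOG00000049232), a Wnt pathway transcription factor of this stage and one of the miR-145 targets that the study names, was at 47.8 and 49.9 CPM with both mimics against 68.5 and 66.0 CPM in miR-ctl. With miR-145 alone it was at 46.6 and 44.1 CPM. Its log2 fold change against miR-ctl was -0.46 ± 0.10 (SE; edgeR adjusted p = 0.80, DESeq2 adjusted p = 0.21). The replicates of each group lay within a few CPM of each other. Bmp4, a ligand that holds back oligodendrocyte differentiation, was at 191 and 178 CPM against 354 and 234 CPM. Nkx2-2, a homeodomain factor of the lineage, was at 62.4 and 60.7 CPM against 109.7 and 73.7 CPM. Fyn, a kinase of process outgrowth, was at 1002 and 1026 CPM against 1413 and 1225 CPM. Bmp4, Nkx2-2 and Fyn reached unadjusted p under 0.05 (2.23% of all genes) without passing adjustment. Gpr17, a receptor of committed progenitors, was at 224 and 232 CPM against 375 and 265 CPM, and Bcas1, a protein of early myelinating cells, at 1871 and 1718 CPM against 3021 and 2086 CPM. In Enpp6, a choline phosphodiesterase of newly formed oligodendrocytes, replicate 2 was the higher library instead, at 116 and 171 CPM against 179 and 261 CPM, and the groups only just failed to overlap.

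Transcription factors of the lineage, a list that shares Tcf7l2 and Nkx2-2 with the premyelinating genes, showed a smaller lean in the same direction. Of 23 tested, 17 were lower, 8 of them without overlap (19.4% of all genes), and 5 reached an unadjusted p under 0.05 (2.23% of all genes), with a median of -0.05. Zfp488, a co-regulator that promotes differentiation, was at 48.8 and 54.0 CPM against 95.5 and 71.5 CPM (log2 fold change -0.70 ± 0.17, SE; DESeq2 adjusted p = 0.13). Zfp365 was at 90.6 and 96.5 CPM against 156 and 120.1 CPM, and Myt1, a zinc finger factor, at 69.8 and 68.5 CPM against 118 and 81.3 CPM. Sox10, which specifies the lineage, was at 439 and 632 CPM against 669.7 and 669 CPM, lower in both libraries but far apart between them. Myrf, the factor that switches on myelin genes, overlapped at 439.7 and 689 CPM against 575 and 678 CPM. Its log2 fold change was -0.15, and 0.15 without miR-145+miR-219 replicate 1.

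Over the 17 myelin genes the median log2 fold change was 0.84 (13 higher and 4 lower), but only 6 higher members had groups that did not overlap (17.3% of all genes) and none reached p under 0.05 with edgeR or was called by DESeq2. Mobp, a small basic protein of compact myelin, was at 99.1 and 192 CPM with both mimics against 15.0 and 68.8 CPM in miR-ctl. With miR-145 alone it was at 58.3 and 132 CPM. Its log2 fold change was 1.81 ± 0.75 (SE; edgeR adjusted p = 0.814). Replicate 2 was the higher library in every group, so that miR-145+miR-219 replicate 1 lay not far above miR-ctl replicate 2. The estimate was 1.09 without miR-ctl replicate 1 and was 3.28 without miR-ctl replicate 2.

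Ermn, a cytoskeletal protein of mature cells, was at 8.35 and 17.3 CPM against 0.804 and 5.53 CPM, and Mal, a raft protein of myelin, at 7.46 and 18.0 CPM against 0.553 and 5.28 CPM. Both genes of late maturation shared the pattern of Mobp, a low miR-ctl replicate 1 and no overlap. Hapln2, a link protein at nodes of Ranvier, was at 4.42 and 9.99 CPM against 0.553 and 2.67 CPM (edgeR adjusted p = 0.801). Mog, on the outer myelin surface, overlapped at 22.9 and 43.6 CPM against 9.20 and 23.2 CPM. The abundant Mbp overlapped, at 8096 and 15517 CPM against 6224 and 13143 CPM. Its log2 fold change of 0.29 ± 0.48 (SE) turned negative without miR-145+miR-219 replicate 2 (-0.27) and without miR-ctl replicate 1 (-0.14). The median of the list lay between 0.22 without miR-145+miR-219 replicate 2 and 1.44 without miR-ctl replicate 2.

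**Figure D3:**
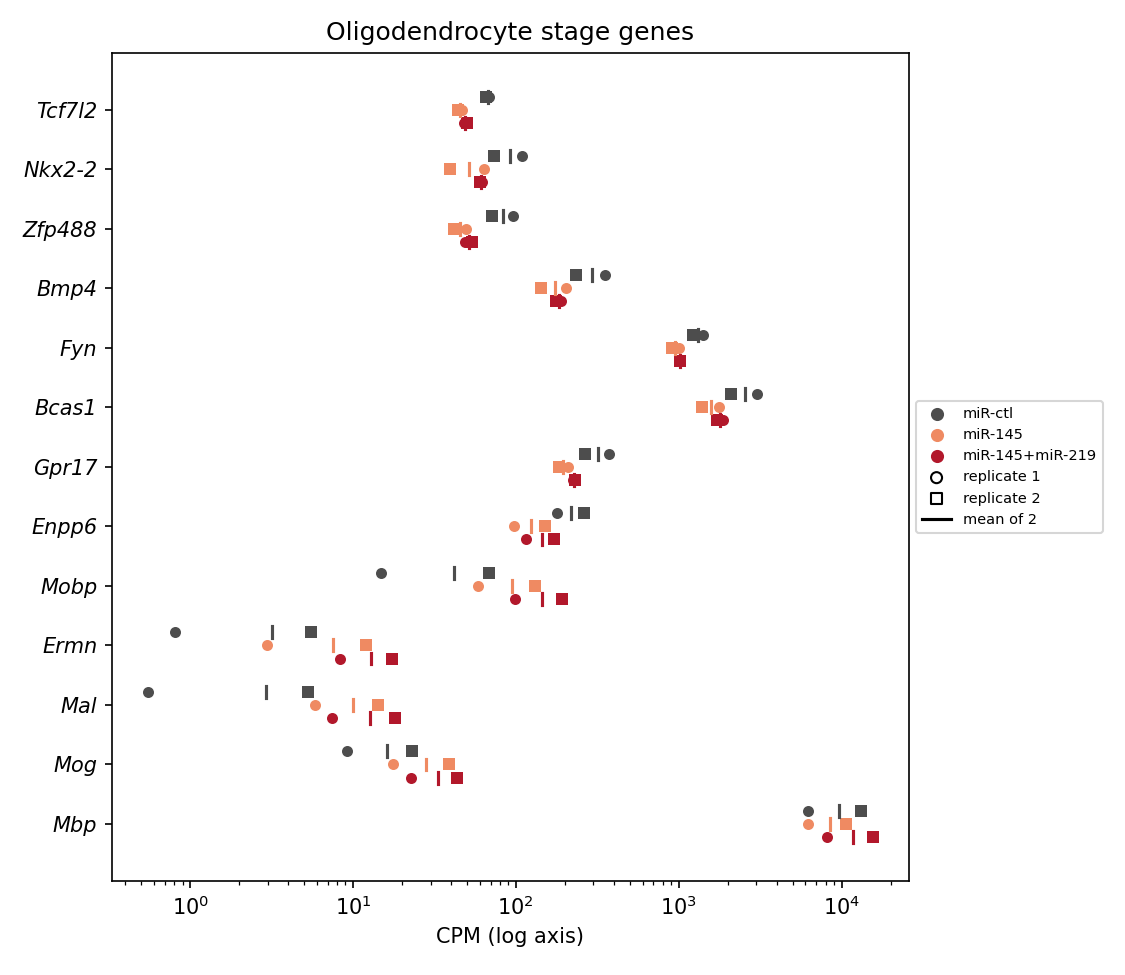
CPM on a log axis of 13 oligodendrocyte stage genes in the 6 oligodendrocyte libraries, with circles for replicate 1, squares for replicate 2, colours for the groups and short bars for the mean of 2. The genes from Tcf7l2 to Enpp6 were lower with both mimics than in miR-ctl, as for Tcf7l2 at 47.8 and 49.9 against 68.5 and 66.0 CPM. The late genes from Mobp to Mal were higher, with replicate 2 above replicate 1 in each group.

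Cholesterol synthesis supplies myelin membrane, and 21 of its 22 genes had lower means with both mimics, at small sizes. The median log2 fold change was -0.22, and 3 members were lower without overlap, no larger a share than the 19.4% of all genes. The sterol reductase gene Tm7sf2 alone reached an unadjusted p under 0.05 (2.23% of all genes), at 50.1 and 56.9 CPM against 72.2 and 63.5 CPM. Without miR-ctl replicate 1 the median was 0.04, so the lean rested on that library.

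Reported targets of the microRNAs gave small differences. The 6 targets of miR-145 that the study names were all lower, with a median of -0.31. Of these, 5 did not overlap (19.4% of all genes) and 3 had an unadjusted p under 0.05 (2.23% of all genes). The study named this list with its own libraries in hand, so it is not independent evidence of direction. Beside Tcf7l2 these were Rapgef2, an exchange factor for Rap, at 102 and 107 CPM against 163 and 123 CPM, and Serinc5, a membrane protein that restricts retroviruses, at 1095 and 1272 CPM against 1725 and 1475 CPM. Acvr1b, an activin receptor, was at 43.6 and 45.3 CPM against 52.1 and 49.7 CPM, and Sox2, a factor of neural progenitors, at 319.6 and 338 CPM against 369 and 386 CPM. The sixth was Myrf. Tcf7l2, Sox2 and Myrf are also among the lineage factors described above. Of 22 genes known as miR-145 targets in other tissues, 12 were higher and 10 lower, with a median of 0.03.

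The 9 reported miR-219 targets that were tested divided into 4 higher and 5 lower, with a median of -0.10. Among them 2 were lower without overlap, Pdgfra and Hes5, near the background of 19.4%, and none reached p under 0.05. Pdgfra, the growth factor receptor of progenitors, was at 185 and 148 CPM against 265 and 186 CPM in miR-ctl, and at 169 and 174 CPM with miR-145 alone. Hes5, a Notch effector, was near the detection limit at 0.889 and 0.561 CPM against 1.23 and 0.891 CPM. Lingo1, an inhibitor of myelination, at 30.3 and 23.9 CPM against 45.7 and 27.0 CPM, and Sox6, a factor that holds progenitors undifferentiated, at 115 and 93.3 CPM against 163 and 97.9 CPM, overlapped. So did Foxj3 at 45.2 and 35.7 CPM against 44.3 and 42.3 CPM. The 4 others had higher means with overlap. Zbtb18 was at 37.8 and 30.4 CPM against 35.3 and 32.7 CPM, and Etv5 at 63.2 and 36.9 CPM against 50.3 and 32.2 CPM. Fgfr2 was at 254 and 399 CPM against 207 and 329 CPM. Elovl7, a fatty acid elongase, was at 7.26 and 13.1 CPM against 7.56 and 10.5 CPM. Messenger RNA levels do not measure repression of translation, and the level of miR-219 itself was not measured by this assay.

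**Figure D4:**
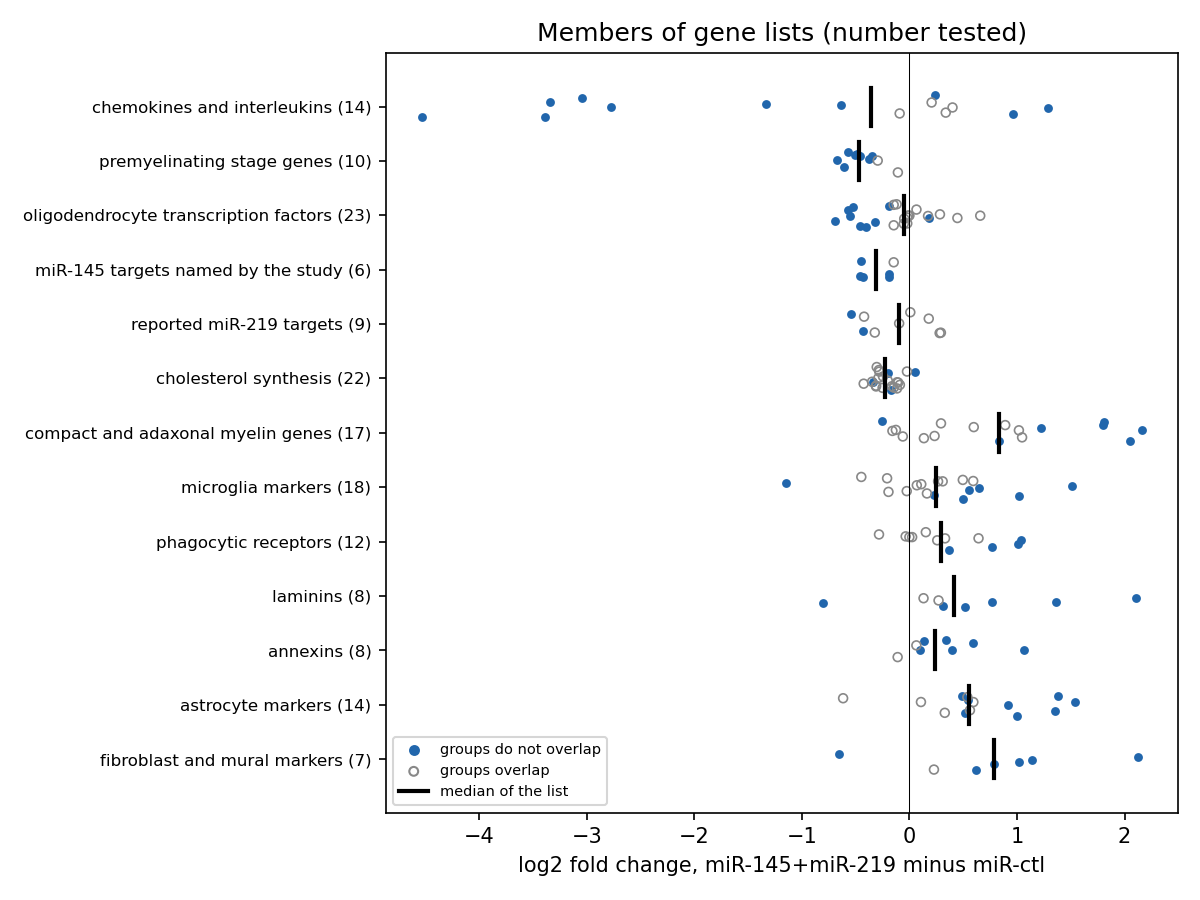
Log2 fold change of miR-145+miR-219 minus miR-ctl for the members of 13 gene lists, with filled points where the libraries of the groups did not overlap, open points where they did, and a bar at the median of each list. The medians ran from -0.47 for premyelinating genes and -0.36 for chemokines and interleukins to 0.79 for fibroblast and mural markers and 0.84 for myelin genes, against 0.00 for all genes.

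The higher genes included many that astrocytes express. Of 14 astrocyte markers tested, 13 had higher means with both mimics, with a median log2 fold change of 0.55. Of these, 8 were higher without overlap (17.3% of all genes) and 6 at unadjusted p under 0.05 (3.96% of all genes). DESeq2 called 3 of them higher (0.473% of all genes), Agt, Gja1 and Slc4a4. Summed over the list, the level was 15075 and 11533 CPM with both mimics, 8963 and 9491 CPM in miR-ctl and 17181 and 13460 CPM with miR-145 alone. Whether more astrocytes or more RNA from each of them made up this level was not tested.

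Agt (ENSRNOG00000018445), the angiotensin precursor, was at 90.8 and 57.0 CPM against 27.9 and 30.2 CPM in miR-ctl, with a log2 fold change of 1.35 ± 0.24 (SE; DESeq2 adjusted p = 0.00032, edgeR adjusted p = 0.789). Gja1, the gap junction protein connexin 43, was at 575 and 257 CPM against 159.5 and 161 CPM (1.38 ± 0.38, SE; DESeq2 adjusted p = 0.022). Slc4a4, a bicarbonate transporter, was at 328 and 126 CPM against 92.6 and 63.8 CPM (1.54 ± 0.48, SE; DESeq2 adjusted p = 0.037). In each, miR-145+miR-219 replicate 1 was the highest of the 4 libraries by a wide margin. Without it the log2 fold changes of Gja1 and Slc4a4 were 0.69 and 0.70, and without replicate 2 they were 1.83 and 2.06.

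Aqp4, the water channel of astrocyte endfeet, was at 453 and 252 CPM against 168 and 186 CPM, and S100b, a calcium-binding protein, at 1221 and 747 CPM against 524 and 521 CPM. Sox9, a transcription factor of astrocytes, was at 61.5 and 45.9 CPM against 39.1 and 34.9 CPM. These 3 genes had no overlap between groups and were not called (DESeq2 adjusted p = 0.082, 0.060 and 0.46). Gfap was at 7754 and 4860.4 CPM against 4799 and 4179 CPM, again highest in miR-145+miR-219 replicate 1. Outside the list, DESeq2 called Mlc1, an astrocyte membrane protein, at 563 and 351 CPM against 176 and 198 CPM, and Ednrb, an endothelin receptor, at 328 and 165 CPM against 113 and 97.5 CPM. The S100 family leaned the same way, with 7 of 9 members higher without overlap (17.3% of all genes) and a median of 0.78. Its member S100a16 was at 49.8 and 28.2 CPM against 9.65 and 10.96 CPM, a log2 fold change of 1.92 ± 0.30 (SE; DESeq2 adjusted p = 1.7e-06).

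By rank of edgeR p, the 15 higher genes were Dhrs9, Cx3cr1, Rab3b, Tnc, Sft2d2, Cyp46a1, Calb1, Lpl, Efemp1, S100a16, Fam84a, Cd34, Ssc5d, Ston1 and Atp8a1, and DESeq2 called all 15. Dhrs9 (ENSRNOG00000058568), a dehydrogenase of retinoid and steroid metabolism, led with 5.36 and 7.61 CPM against 0.578 and 0.829 CPM in miR-ctl, a log2 fold change of 3.21 ± 0.33 (SE; DESeq2 adjusted p = 1.4e-10, edgeR adjusted p = 0.777). With miR-145 alone Dhrs9 was at 4.76 and 7.40 CPM. Rab3b (ENSRNOG00000008001), a GTPase of regulated secretion, was at 13.1 and 8.90 CPM against 2.36 and 2.58 CPM (2.16 ± 0.26, SE; DESeq2 adjusted p = 6.2e-08). Calb1, a calcium buffer, was at 36.9 and 26.9 CPM against 9.55 and 12.4 CPM (1.54 ± 0.22, SE; DESeq2 adjusted p = 7.5e-06). In these genes the miR-ctl libraries were close to each other and well below both libraries with the mimics.

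Cyp46a1, which hydroxylates brain cholesterol for export, was at 12.8 and 10.7 CPM against 4.72 and 5.19 CPM, and Lpl, a lipoprotein lipase, at 26.0 and 27.1 CPM against 12.2 and 14.7 CPM. Atp8a1, a phospholipid flippase, was at 106 and 99.3 CPM against 62.4 and 69.0 CPM. Sft2d2 was at 35.9 and 32.1 CPM against 18.0 and 19.2 CPM, and Ston1, an endocytic adaptor, at 10.8 and 10.8 CPM against 4.55 and 5.59 CPM. Ston2, its relative, was called by DESeq2 at 13.7 and 11.7 CPM against 7.09 and 6.45 CPM. Fam84a stood at 19.4 and 18.3 CPM against 10.9 and 10.1 CPM, and Ssc5d, a soluble scavenger receptor, at 86.9 and 74.6 CPM against 49.4 and 46.7 CPM.

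Tnc (ENSRNOG00000058645), the matrix glycoprotein tenascin C, was at 157 and 124 CPM against 66.3 and 69.3 CPM, with a log2 fold change of 1.06 ± 0.14 (SE; DESeq2 adjusted p = 2.5e-05). With miR-145 alone it was at 105 and 108 CPM, below both libraries with 2 mimics, a log2 difference of 0.39 ± 0.14 (SE) that edgeR did not call. DESeq2 also called Fn1, which is fibronectin, at 29.0 and 25.0 CPM against 14.1 and 9.03 CPM, and Mmp14, a membrane-bound collagenase, at 154 and 85.6 CPM against 52.1 and 50.4 CPM. Efemp1, a fibulin, was at 3.43 and 2.97 CPM against 0.829 and 0.983 CPM. Of 8 laminins, 5 were higher without overlap (17.3% of all genes) and 1 lower (19.4%), with a median of 0.41. Lama2 was at 1.56 and 1.18 CPM against 0.352 and 0.276 CPM and Lamb2 at 92.9 and 81.6 CPM against 59.8 and 62.3 CPM, while Lama4 was lower at 35.5 and 37.1 CPM against 79.6 and 47.3 CPM, and none of the 8 was called. Col18a1 was called higher by DESeq2, at 6.15 and 3.96 CPM against 1.99 and 1.41 CPM, and Col16a1 lower, at 100.0 and 136 CPM against 237 and 191 CPM.

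Fibroblast and mural markers were read as a check for stray cells. Of 7 tested, 5 were higher without overlap (17.3% of all genes) and 1, Cspg4, which progenitors also hold, was lower, with a median of 0.79. Tagln, a contractile protein, was at 51.1 and 37.2 CPM against 26.9 and 16.6 CPM, and Myh11, smooth muscle myosin, at 12.2 and 13.8 CPM against 8.47 and 8.51 CPM. Dcn, Lum, Acta2, Rgs5, Des and Col1a2 were not among the genes tested with a symbol. The part of such cells in the matrix genes was not tested. Among 7 endothelial markers, 5 were lower and the median was -0.54. The growth factor receptor Kdr was called lower by DESeq2, at 8.60 and 7.55 CPM against 20.2 and 14.4 CPM. The list summed to 13.1 CPM in both libraries with the mimics against 28.3 and 19.8 CPM, and Kdr made up most of this sum in every library. Cd34, a surface sialomucin of progenitors and vessels, was higher at 3.78 and 4.13 CPM against 1.41 and 1.32 CPM.

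Genes for taking up cell debris formed another list. Of 12 phagocytic receptors and bridging genes, 9 had higher means, 4 without overlap (17.3% of all genes), and the median was 0.29. Megf10, an engulfment receptor of astrocytes, was at 138 and 97.6 CPM against 59.4 and 55.8 CPM (log2 fold change 1.03 ± 0.18, SE; DESeq2 adjusted p = 0.0019). Gulp1, its adaptor, was at 5.41 and 3.34 CPM against 2.19 and 2.18 CPM. The receptor kinases Mertk, at 75.4 and 44.6 CPM against 33.8 and 36.7 CPM, and Axl, at 97.1 and 82.5 CPM against 68.3 and 71.3 CPM, did not overlap and were not called by DESeq2. Annexins, which bind membranes in the presence of calcium, had 6 of 8 members higher without overlap (17.3% of all genes) and a median of 0.24, and DESeq2 called Anxa3 at 57.1 and 81.7 CPM against 28.4 and 38.3 CPM.

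Of 18 microglia markers, 13 had higher means, 6 without overlap (17.3% of all genes), and 1 was lower without overlap (19.4%), with a median of 0.25. Cx3cr1 (ENSRNOG00000018509), the fractalkine receptor that defines microglia, was at 12.8 and 15.4 CPM against 4.95 and 5.01 CPM, a log2 fold change of 1.51 ± 0.17 (SE; DESeq2 adjusted p = 9.8e-07). It stood apart from the rest of the list. Trem2, a lipid receptor, was at 35.5 and 54.5 CPM against 27.3 and 34.4 CPM. Lyz2, lysozyme, was lower at 3.01 and 7.44 CPM against 7.89 and 15.3 CPM. No marker other than Cx3cr1 was called by either tool.

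**Figure D5:**
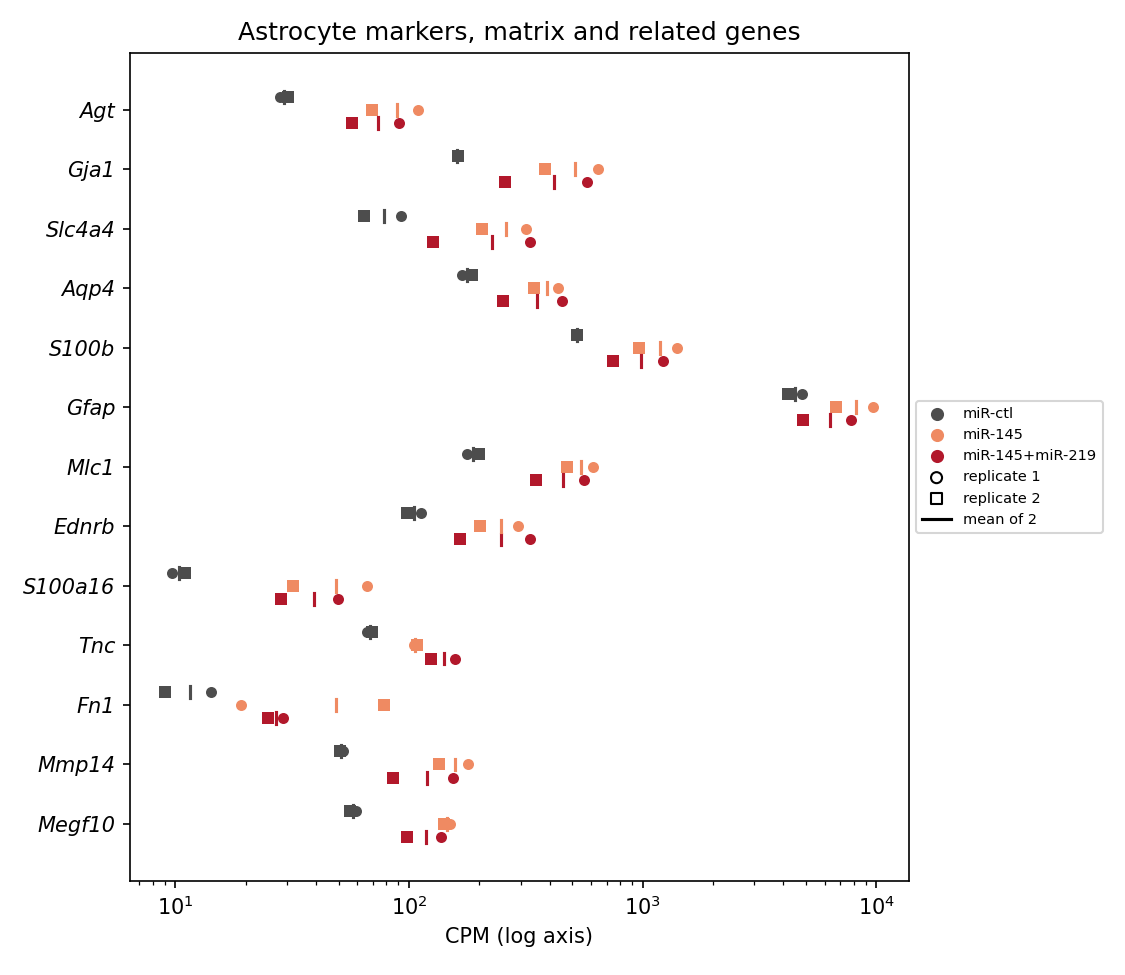
CPM on a log axis of 13 astrocyte, matrix and engulfment genes in the 6 oligodendrocyte libraries, with circles for replicate 1, squares for replicate 2, colours for the groups and short bars for the mean of 2. Every gene shown had both miR-145+miR-219 libraries above both miR-ctl libraries, as for Tnc at 157 and 124 against 66.3 and 69.3 CPM. Replicate 1 was the higher of the miR-145+miR-219 libraries in each.

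The comparison with the miR-145 mimic alone addresses what the second mimic added. Of 15501 genes tested between these groups, edgeR called none (0%), with a smallest adjusted p of 1.00. Before adjustment, 228 of the 15501 had p under 0.05, 51 higher and 177 lower with both mimics. With the replicate number as a block edgeR called 184 (1.19%), 66 higher and 118 lower. DESeq2 called 9 genes (0.0581%), of which 7 had a symbol with more than 1 gene ID, and none after the counts of such IDs were summed. Without overlap, 13.6% of genes were higher with both mimics than with miR-145 alone and 11.2% were lower.

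By rank the higher genes were Kcnma1, Pcsk1n and Carmil1, and the lower genes were Inpp5j, Bcl3 and Slc25a29. Kcnma1, a calcium-activated potassium channel, was at 15.7 and 14.5 CPM with both mimics against 10.2 and 9.02 CPM with miR-145 alone, a log2 fold change of 0.64 ± 0.14 (SE). Pcsk1n, an inhibitor of a prohormone convertase, was at 28.2 and 29.5 CPM against 22.0 and 21.2 CPM. Carmil1, a regulator of actin capping, was at 96.7 and 107 CPM against 76.3 and 76.8 CPM. Inpp5j, an inositol phosphatase, was lower at 113 and 116 CPM against 170.1 and 161 CPM (-0.54 ± 0.10 on the log2 scale, SE). Bcl3, a co-regulator of NF-κB, was at 20.0 and 18.6 CPM against 28.2 and 27.9 CPM, and Slc25a29, a mitochondrial carrier, at 29.4 and 25.0 CPM against 42.3 and 39.0 CPM. None passed adjustment, and in miR-ctl Inpp5j was at 132 and 123 CPM and Bcl3 at 26.6 and 24.5 CPM.

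Some of the genes described above were also read against miR-145 alone. Ccl2 was lower with both mimics than with miR-145 alone by a log2 difference of -1.04 ± 0.37 (SE), with no overlap. Cxcl10 differed by -2.39 ± 0.76 and Ptgs2 by -1.90 ± 0.59 (SE), both at a few counts. None of Ccl2, Cxcl10 and Ptgs2 was called by edgeR. Ccl7 (-0.87 ± 0.50, SE), Ccl20 (-0.62 ± 0.78) and Cxcl1 (-0.85 ± 0.88) overlapped miR-145 alone. With miR-145 alone against miR-ctl, DESeq2 already called Ccl2, Ccl7, Ccl20 and Cxcl1 lower (adjusted p = 0.0038, 0.00045, 0.011 and 4.15e-05). Lcn2 was at 13.8 and 73.1 CPM and C3 at 3.61 and 19.6 CPM with miR-145 alone, and both overlapped the libraries with 2 mimics. Mobp overlapped as well, at 58.3 and 132 CPM against 99.1 and 192 CPM, a difference of 0.60 ± 0.50. The tyrosine kinase Axl was lower with both mimics, at 97.1 and 82.5 CPM against 119 and 139 CPM (-0.53 ± 0.14, SE; not called). Aurkb, a mitotic kinase that DESeq2 called higher against miR-ctl at 25.0 and 23.4 CPM against 15.7 and 13.1 CPM, was at 31.0 and 46.5 CPM with miR-145 alone. Both comparisons use the same miR-145+miR-219 libraries, so their values are not independent.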

How the data were processed

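Bulk RNA was sequenced from stranded poly(A) libraries of 10 samples. Per the study's methods and the labels, the authors quantified reads with Salmon 0.12.0 on a GENCODE rat transcriptome (Rnor6.0) and deposited estimated counts per gene, which were rounded here. The deposited table of the authors' own comparisons (fold changes and p-values) was used only to pair gene IDs with symbols. Groups came from the sample titles. Genes that reached a count of 5 in 2 or more of the libraries compared were tested with the quasi-likelihood test of edgeR 4.0.16 (TMM, Benjamini-Hochberg over all genes tested) in R 4.3.3, without a replicate block. DESeq2 1.42.0 was the main alternative, and others changed the scaling, filter, samples or block. The fits were checked on simulated counts. CPM used TMM factors over all 10 libraries. Named genes were the 15 higher and 15 lower genes by edgeR p given in the text (3 and 3 against miR-145), list members and genes the study names; the genes called by DESeq2 beside them were chosen after their values were seen. Where a symbol of a list had more than 1 gene ID, the ID of highest mean was used. The comparison and the lists were chosen with earlier results of these data known.

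Depth was 33505668 to 42684176 counts per library over the 10 samples. The paper's methods mention lentivirus for RNAseq samples, while the labels and the rest of the paper describe mimics. Of 23487 genes, 4036 had no count in any library. A few genes are not reported here.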

Additional observations from a re-analysis of the deposited data

How the results depend on the processing

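Against miR-ctl, edgeR called no gene under TMM, DESeq2's size factors, a minimum of 10 counts, all 5 groups in 1 fit (smallest adjusted p 0.0655), a fold change of at least 1.5 or summed gene IDs, nor when any library was left out (0 to 0 calls). Without a count filter and with 6 oligodendrocyte libraries in 1 fit it called 1, a gene ID of Pigg, a symbol with more than 1 ID. DESeq2 called 106, and 96 after gene IDs of a symbol were summed, an alternative chosen after seeing the data. Against miR-145, edgeR called none under these settings (0 to 0 without a library), and DESeq2 9.

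With the replicate number as a block, edgeR called 132 genes against miR-ctl, 62 of them also called by DESeq2, and 184 against miR-145. Deviations of equal replicate numbers correlated at 0.467 (with miR-ctl) and 0.630 (with miR-145) across genes, but with 2 pairs and no source that says whether equal numbers in different groups share a culture, this is a hint from the data.

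Of 127 genes described, 10 changed direction, only when a library was left out. The genes ranked against miR-ctl or called by DESeq2 had groups without overlap, so for them a change was nearly excluded beforehand. Over the 4 such fits the log2 fold changes ranged from -0.52 (without miR-145+miR-219 replicate 2) to 0.15 for Myrf, -0.27 to 0.92 for Mbp, -0.32 to 0.55 for Elovl7, -0.15 to 0.65 for Etv5, -0.084 to 0.66 for Fgfr2, -0.27 to 0.053 for Foxj3, -0.75 to 0.015 for Lingo1, -0.65 to 0.098 for Sox6, -0.15 to 0.15 for Zbtb18 and -0.10 to 0.62 for Pcsk1n. List medians that turned were cholesterol synthesis (-0.42 to 0.044), miR-145 targets of other tissues (-0.074 to 0.10), interferon response (-0.13 to 0.30) and cell cycle genes (-0.025 to 0.37). The scaling moved the median of all genes by under 0.1 on the log2 scale. Genes with few counts, such as Cxcl10 and Il1b, are limited by depth.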

Other observations

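Several gene families had a lean not described above. Of 82 cytosolic ribosomal protein genes, 74 had lower means with both mimics and 52 were lower without overlap, against 19.4% of all genes tested. The sizes were small, with a median log2 fold change of -0.09 that lay between -0.10 and -0.08 when any library was left out, and none reached an unadjusted p under 0.05. Of 65 potassium channel genes, 42 were higher and 19 of these without overlap, against 17.3% of all genes tested, and the median of 0.29 was 0.04 without miR-145+miR-219 replicate 1.

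Interferon response genes were divided, with 12 of 19 higher and a median of 0.24. Without overlap, 6 were higher (17.3% of all genes) and 4 lower (19.4%), and log2 fold changes ran from -3.39 to 1.83. Ifi44, an interferon-induced protein, was at 5.29 and 4.35 CPM against 3.17 and 3.10 CPM, and Ddx58, the RNA sensor RIG-I, at 15.7 and 12.3 CPM against 10.2 and 10.3 CPM, with no call by either tool. Of 11 genes for antigen presentation on MHC class I, 9 had higher means, and the median of 0.23 was 0.01 without miR-145+miR-219 replicate 1. Among 29 cell cycle genes, 22 had higher means, the median was 0.13, and DESeq2 called 1 higher, Aurkb (0.473% of all genes).

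Of the 106 genes called by DESeq2, 12 had a symbol shared by more than 1 gene ID, out of 266 such symbols. The largest was Pigg, an enzyme of glycolipid anchor synthesis. One of its IDs had no count in either library with both mimics and 513 and 456 counts in miR-ctl, while the sum over its IDs was 1379 and 1398 against 1378 and 1297 counts. For Rbm12, an RNA-binding protein gene with 4 IDs, 1 ID had no count with both mimics and 676 and 176 counts in miR-ctl. Ccnj and Slc29a2 had IDs of the same kind. In Mboat7l1 and LOC100910130 the reverse held, with 1 ID that had no count in miR-ctl. With both mimics that ID had 54 and 85 counts in Mboat7l1 and 43 and 43 in LOC100910130. Between libraries, counts of such genes were assigned to different IDs, and whether this reflects different transcripts or the assignment of reads was not tested.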
